A study of Homo sapiens with 2 samples.

Results

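The proteasome is the barrel-shaped protease that degrades proteins tagged with ubiquitin, and its subunit and assembly genes were followed here in HCT116 cells after knockdown of RAP1. The genes were chosen by symbol, as those starting with PSMA, PSMB, PSMC, PSMD, PSME or PSMG with at least 1 probe set that carries their symbol alone, each represented by its brightest such probe set. The rule found 44 genes of 18132 with a probe set of their own. Of these, 42 encode proteasome subunits, activators or assembly factors and 2, PSMC3IP and PSME3IP1, carry the prefix because their proteins bind a subunit. A further gene with such a symbol is not analysed here. A probe set was treated as measured where the higher of its 2 values reached 78.0 on the linear intensity scale, the median of all values (6.29 on the log2 scale). That floor was passed by 39 of the 42 proteasome genes, and by 10437 genes in all.

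HCT116 is an epithelial line from a human colorectal carcinoma. The control culture (shNC) was given a lentivirus with a negative-control hairpin and the other culture (shRAP1) a lentivirus with the hairpin sh-RAP1-4#, both at a multiplicity of infection of 20 for 72 h. Each group was 1 culture on 1 array, and only 1 hairpin against RAP1 was used. The groups share the cell line, the lentiviral infection and its duration, and the stated question was what RAP1 does in colorectal cancer cells. All differences below are shRAP1 minus shNC of log2 intensities. With 1 array per group they have no replicate check and no test, and the number of arrays limits their precision. RNA came from whole cultures, so fewer cells with a transcript and less of it per cell cannot be told apart.

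TERF2IP, the gene of the telomere protein RAP1, had an intensity of 1311 in shNC and 624 in shRAP1. This was 47.6% of the control on its only probe set, while the name RAP1 is also used for the GTPases of RAP1A and RAP1B. Of 7 epithelial markers 6 passed the floor, VIL1 being the exception, and their summed intensity was 30954 in shNC and 31728 in shRAP1. None of 3 measured leukocyte markers (summed 57.5 and 55.2) and none of 5 fibroblast markers (146 and 160) passed it. Of 3 endothelial markers VWF passed (129 and 125). Over all 10437 genes the differences had a median of 0.010 and an SD of 0.16.

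The 26S proteasome consists of a 20S core with 19S regulatory particles at its ends. In the core, rings of alpha subunits gate the entry and rings of beta subunits carry the proteolytic sites. In the regulatory particle, the lid removes ubiquitin and the base, a ring of ATPases with large scaffold and ubiquitin-binding subunits, unfolds the substrate and feeds it into the core. Dedicated chaperones build the core and the base, and alternative activators can replace the 19S particle. The subunit genes are transcribed coordinately, and the transcription factor NFE2L1, which binds antioxidant response elements, raises them when proteasome activity falls short. Dividing cells use this machinery to turn over cell cycle regulators and misfolded proteins.

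The upstream sequences of 4 members are printed because these genes had the 2 lowest and the 2 highest differences, so that what lies before a gene can be set beside how far it differed. They are the 250 bases before each annotated gene start, 5′ to 3′ on the gene's strand, from RefSeq on GRCh38.p14. Capitals mark the letters TGACNNNGC, the core of the antioxidant response element, and CCAAT, the box bound by NF-Y, on either strand, so that the letters may stand as their reverse complement.
PSMG1, chr21:39183452-39183701, minus strand: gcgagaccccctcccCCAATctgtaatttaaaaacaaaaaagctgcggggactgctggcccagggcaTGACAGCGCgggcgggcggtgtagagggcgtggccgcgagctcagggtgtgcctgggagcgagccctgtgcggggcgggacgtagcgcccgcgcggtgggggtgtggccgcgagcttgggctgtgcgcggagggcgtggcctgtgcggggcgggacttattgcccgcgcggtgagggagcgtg
PSMC3, chr11:47426440-47426689, minus strand: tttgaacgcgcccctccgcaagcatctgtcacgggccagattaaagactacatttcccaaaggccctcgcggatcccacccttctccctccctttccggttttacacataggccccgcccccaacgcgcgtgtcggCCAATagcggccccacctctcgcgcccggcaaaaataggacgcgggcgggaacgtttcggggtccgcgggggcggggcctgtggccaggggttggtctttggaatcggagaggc
PSME4, chr2:53970994-53971243, minus strand: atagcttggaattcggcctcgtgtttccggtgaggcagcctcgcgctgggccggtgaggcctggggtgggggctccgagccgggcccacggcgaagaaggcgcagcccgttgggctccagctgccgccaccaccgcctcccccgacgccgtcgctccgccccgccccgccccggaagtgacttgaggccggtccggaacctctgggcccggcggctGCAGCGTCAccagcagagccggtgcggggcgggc
PSMD3, chr17:39980557-39980806, plus strand: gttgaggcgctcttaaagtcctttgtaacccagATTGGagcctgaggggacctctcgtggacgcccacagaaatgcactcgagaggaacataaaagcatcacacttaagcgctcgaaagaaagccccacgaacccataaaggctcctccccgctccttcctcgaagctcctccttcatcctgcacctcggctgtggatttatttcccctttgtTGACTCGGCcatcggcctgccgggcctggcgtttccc

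Of 46 proteasome genes named by role, 40 had an upstream sequence in the RefSeq table. TGACNNNGC stood in 12 of the 40, or 30.0%, against 13.2% of all 27305 genes with such a sequence. That background includes genes not measured here and was not matched to the members for level or base composition. CCAAT stood in 18 of the 40, or 45.0%, against 37.0% of all genes. Both were present before PSMG1, the lowest member, and before PSMD3, the highest. PSMC3 held CCAAT alone and PSME4 the antioxidant element core alone. Among measured members, the 11 with TGACNNNGC had a median difference of −0.066 and the 22 without it −0.056, and 9 of the 11 and 22 of the 22 were lower. The same medians, −0.066 and −0.056, were found for 15 members with CCAAT and 18 without. A match of these letters is a description of the sequence and was not tested as a binding site.

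Almost the whole set was lower in shRAP1, each gene by little. Of the 39 measured members 37 were lower and 2, the lid subunit PSMD3 and the activator PSME4, were higher. The background for this count is that 46.8% of all 10437 genes were lower and 53.2% higher. The median difference of the members was −0.066, and the middle 50% of them lay between −0.14 and −0.028, while the middle 50% of all genes lay between −0.081 and 0.11. So the set stood low as a group, but these 2 ranges overlapped, and a single member inside the overlap is not set apart from ordinary genes. At least 1.2-fold lower were PSMG1 and PSMC3, against 3.58% of all genes, and 0 members were that much higher, against 4.96%. At the smaller size of 1.1-fold, 11 members (28.2%) were lower, against 14.4% of all genes, and 2 members (5.13%) were higher, against 19.5%. No member differed by 1.5-fold, against 0.172% of all genes lower and 0.211% higher by that size.

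**Figure D1:**
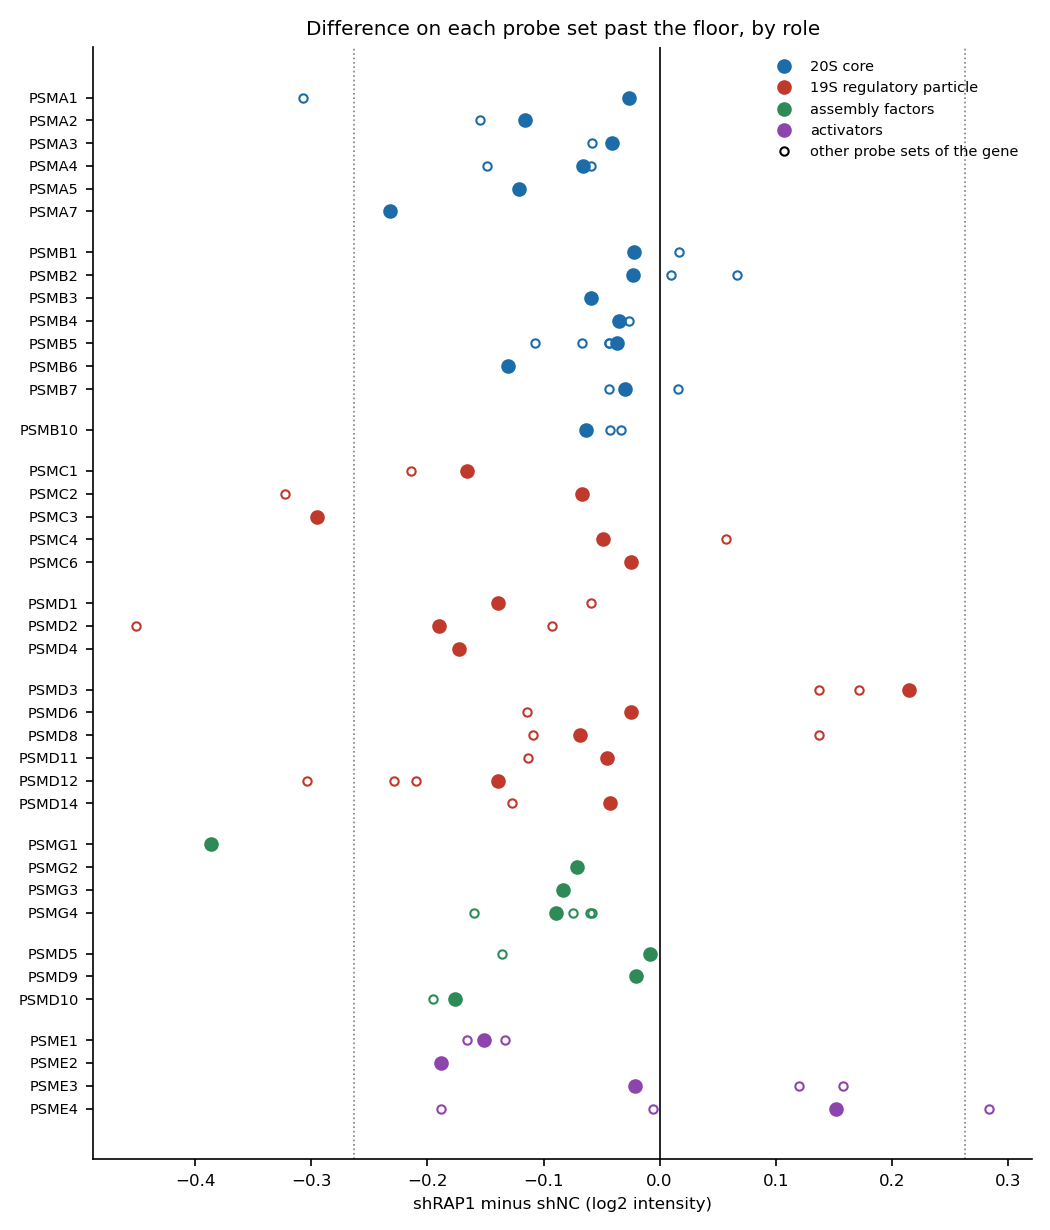
Difference between the arrays (shRAP1 minus shNC, log2 intensity, x axis) for every single-symbol probe set past the floor, 1 line per gene grouped by role; filled points are the brightest probe set, open points the others, and dotted lines mark 1.2-fold. Of 86 probe sets 73 lie left of 0, and PSMD3 is the only gene with several probe sets that all lie right of it.

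Bright genes leaned low on these arrays, and the proteasome genes are bright. Their median level was 10.94 on the log2 scale, against 8.63 for all measured genes. Among the 1952 genes at or above the members' lower quartile of level, 10.16, 58.2% were lower and the median difference was −0.021. Set against the median of the 500 genes nearest in level, 35 of the 39 members were still lower and 3 higher. Such a median has as many genes below it as above it. Some members were lower by very little, such as PSMD5 at −0.001 and PSMB1 at −0.004 from that median. Within the set the difference did not follow the level, with a Pearson correlation of −0.037 across 39 genes of the same arrays. After subtraction of a lowess trend on level 36 of 39 members were lower, against 50.4% of all genes. The part of this brightness lean in the members' differences was not tested.

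**Figure D2:**
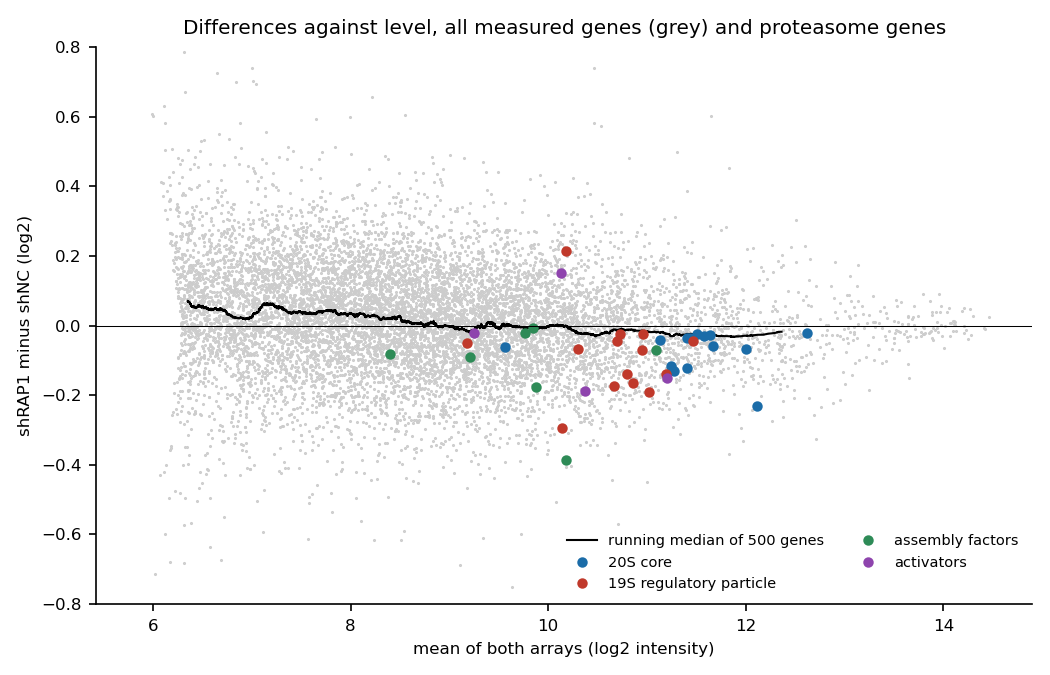
Difference (shRAP1 minus shNC, log2, y axis) against the mean log2 intensity of both arrays (x axis) for all measured genes in grey and the 39 proteasome genes in colour, with the running median of 500 genes as a line; the y axis is limited to 0.8 in either direction. The line falls below 0 at high levels, and most coloured points lie below the line.

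The 20S core was lower in all 14 measured subunits, with a median of −0.050 and a range from −0.23 to −0.022. Within the core the alpha ring had the lower median on the brightest probe sets, −0.091 over 6 genes against −0.036 over 8 beta genes. The 2 groups overlapped, with PSMB6 at −0.13 below all alpha genes but PSMA7, and PSMA1 at −0.026 among the beta genes. This comparison was not planned and was not repeated under other settings, so alpha and beta genes are not separated by these data. PSMA7, an alpha subunit, had 4792 in shNC and 4080 in shRAP1, a difference of −0.23 that was the lowest of the core and 2.21 times the SD of the 500 genes nearest in level. It rested on 1 probe set. PSMA5 followed at 2809 and 2584 (−0.12, 1 probe set), and PSMA2 at 2526 and 2331, with both of its probe sets lower (−0.12 and −0.15). PSMA4 and PSMA3 were lower on all of their probe sets by smaller amounts, between −0.15 and −0.059 for 3 of PSMA4 and between −0.058 and −0.041 for 2 of PSMA3. PSMA1, the highest of the ring, had 3209 and 3151 (−0.026), but its dimmer probe set differed by −0.31. PSMA6 had only a probe set shared with PRORP, at 4393 and 4322 (−0.024), and is not counted.

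The beta subunits hardly differed between the arrays. Each proteolytic site has its own subunit, the chymotrypsin-like site in PSMB5, the caspase-like site in PSMB6 and the trypsin-like site in PSMB7. PSMB6 had 2593 in shNC and 2368 in shRAP1, at −0.13 the lowest of the beta genes, on 1 probe set. PSMB5, the main target of proteasome inhibitors such as bortezomib, had 2760 and 2690 (−0.037), with all 5 probe sets between −0.11 and −0.037. PSMB7 had 3087 and 3024 (−0.030), with 1 of its 3 probe sets past the floor higher. The structural beta subunits PSMB1, PSMB2, PSMB3 and PSMB4 lay between −0.059 and −0.022. For PSMB1 and PSMB2 the dimmer probe sets were higher, up to 0.067 for PSMB2. PSMB1 had 6337 in shNC and 6240 in shRAP1, 98.5% of the control. Among the beta genes, PSMB6 alone differed by more than the SD of genes of similar level.

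Interferon-inducible beta subunits replace constitutive ones to form the immunoproteasome. PSMB10, the inducible trypsin-like subunit, had 770 in shNC and 737 in shRAP1, with all 3 probe sets between −0.063 and −0.033. PSMB8, its chymotrypsin-like counterpart, was under the floor at 16.6 and 22.5. Also under the floor were PSMB11, the subunit of the thymic proteasome, at 13.5 and 15.5, and PSMA8, the alpha subunit of the testis, at 11.8 and 11.5. At such intensities the differences of these 3 genes carry no order.

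In the 19S regulatory particle 13 of 14 measured subunits were lower, with a median of −0.068 and a wider range than the core, from −0.30 to 0.22. The SD of the differences was 0.12 in the regulatory particle and 0.060 in the core. The medians of core and regulatory particle differed by 0.018, the core being the higher, which is small beside the spread within either and ranged from 0.0080 to 0.069 under other settings. The core median lay between −0.072 and −0.028 under these settings and the regulatory one between −0.11 and −0.052. The base and the lid, a division made after the values were seen, also had different medians on the brightest probe sets. All 8 measured genes of the base were lower with a median of −0.15, and 5 of them by at least 1.1-fold, against 14.4% of all genes. Of 6 lid genes 5 were lower, with a median of −0.044, and 1 was lower and 1 higher by at least 1.1-fold, against 14.4% and 19.5% of all genes. On the second brightest probe sets the order turned, with a median of −0.093 over 5 base genes and −0.113 over 6 lid genes. PSMC3, PSMC6 and PSMD4 have no value in that setting. Under the other settings the base stayed the lower, for example −0.181 against −0.074 with each gene as the median over its probe sets. The order thus depended on the probe sets and genes used, and base and lid are not separated by these data.

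The ATPases of the base had uneven differences on their brightest probe sets. PSMC3 had 1247 in shNC and 1016 in shRAP1, or 81.5% of the control, and its difference of −0.30 was lower than that of all but 2.47% of genes. It rested on 1 probe set and exceeded the SD among genes of like level by a factor of 2.16. PSMC1 had 1966 and 1752, with both probe sets lower at −0.17 and −0.21, though both names end in _x_at, the mark of probes that can match other transcripts. PSMC2 had 1297 and 1238 (−0.067) on the brightest probe set and −0.32 on the other past the floor. PSMC4 had 587 and 567 (−0.049) with its other probe set at 0.057, and PSMC6 had 2002 and 1968 (−0.025). The ring is built of equal numbers of each ATPase protein. On their brightest probe sets the RNAs of the 5 measured genes ran from −0.30 to −0.025, with no replicate check of this spread. PSMC5 had no probe set with its symbol in the annotation used here.

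The scaffold and ubiquitin-receiving subunits of the base were lower together. PSMD2, a scaffold that docks ubiquitin shuttle proteins, had 2230 in shNC and 1955 in shRAP1 (−0.19), with 3 probe sets between −0.45 and −0.093. PSMD4, the ubiquitin receptor at the joint of base and lid, had 1722 and 1528 (−0.17) on a probe set ending in _x_at. PSMD1, the other large scaffold, had 1870 and 1698 (−0.14), and −0.059 on its dimmer probe set. All 3 stood at 87.6% to 90.8% of the control.

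The lid held the gene that went most clearly the other way. PSMD3, a structural lid subunit, had 1076 in shNC and 1249 in shRAP1, which is 116% of the control. Its 3 probe sets were all higher, between 0.14 and 0.22, and its difference was 1.55 times the SD among genes of like level. Among all genes with several probe sets past the floor, 29.2% had all of them higher, while of the 27 such members PSMD3 alone did. PSMD12, another structural lid subunit, had 2460 and 2233 (−0.14), and its 4 probe sets were all lower, down to −0.30. PSMD14, the metalloprotease that cuts ubiquitin chains from substrates, had 2881 and 2797 (−0.043, and −0.13 on its other probe set). PSMD6, PSMD8 and PSMD11 lay between −0.069 and −0.025 on their brightest probe sets and at −0.11 each on the second brightest. PSMD8 also had a dim probe set near the floor, with 77.4 in shNC and 85.1 in shRAP1 (0.14). PSMD7 and PSMD13 had no probe set with their symbol in the annotation used here.

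**Figure D3:**
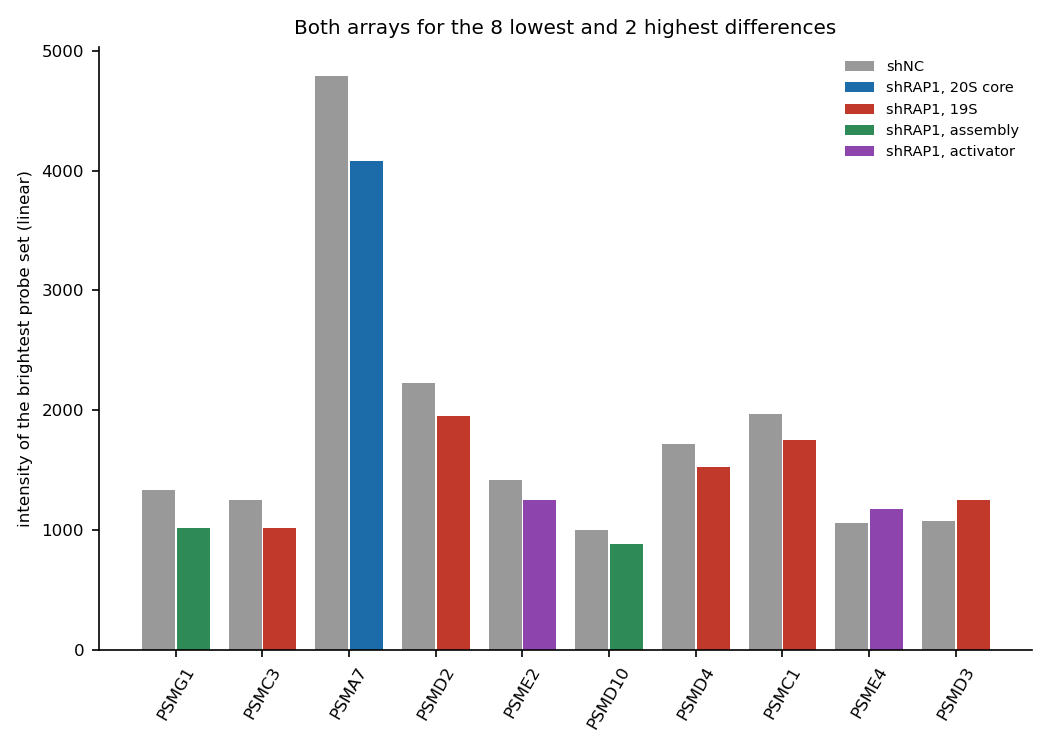
Intensity of the brightest probe set (linear, y axis from 0) on the shNC array in grey and on the shRAP1 array in colour, for the 8 members with the lowest and the 2 with the highest differences (x axis). Each bar is 1 array, and bars of different genes are not comparable since probe sets differ in affinity; PSMG1 is at 1330 and 1018, and PSMD3 at 1076 and 1249.

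All 7 assembly factors were lower, with a median of −0.083. PSMG1, which with PSMG2 forms the chaperone that starts the alpha ring, was the lowest member of the whole set. It had 1330 in shNC and 1018 in shRAP1, 76.5% of the control, a difference of −0.39 on its only probe set, which is 2.78 times the SD among genes of like level. Only 0.920% of genes had a lower difference. Its partner PSMG2 did not match that size, at 2235 and 2128 (−0.071, 1 probe set). The second chaperone pair, PSMG3 and PSMG4, had 347 and 327 (−0.083) and 607 and 571 (−0.089), and the 5 probe sets of PSMG4 past the floor were all lower. Of the base chaperones, PSMD10, known as the oncoprotein gankyrin, had 998 and 883 with both probe sets lower at −0.18 and −0.20. PSMD5 and PSMD9 had 923 and 918 (−0.0080) and 872 and 860 (−0.020), although the dimmer probe set of PSMD5 was at −0.14.

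The activators split. PSME1 and PSME2, which together form the interferon-inducible PA28 cap, were lower in parallel. PSME1 had 2480 in shNC and 2234 in shRAP1, with 3 probe sets between −0.17 and −0.13. PSME2 had 1421 and 1247 (−0.19) on its only probe set, whose name ends in _s_at. PSME3, the nuclear PA28 gamma, had 612 and 603 (−0.021), with its 2 dimmer probe sets higher by up to 0.16. PSME4, the large PA200 activator, had 1059 and 1177 (0.15), but its 4 probe sets past the floor ran from −0.19 to 0.28, so its direction is not settled on these arrays. Of the prefix-only genes, PSMC3IP, a meiotic recombination factor, had 302 and 255 (−0.24), and PSME3IP1 had 423 and 430 (0.024).

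The direction was also counted over all probe sets, which include the brightest ones that gave the count of 37 of 39. Of 86 member probe sets past the floor 73 were lower, against 50.6% of all such probe sets. On the second brightest probe sets alone 22 of 27 members were lower, against 51.7% of all genes with such a probe set. Of the 27 members with several, 19 had all of them lower, against 31.0% of such genes, 7 had both signs and 1 had all higher. The brightest and the second brightest probe set of a gene correlated at 0.553 across these 27 genes and at 0.622 across 6135 genes, points that share the same arrays. The probe sets of a gene are not independent replicates, since they measure the same RNA.

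Genes lying next to the members did not share the lean. The members past the floor lie on 17 chromosomes. Neighbours were taken as the 3 nearest measured genes on each side in RefSeq order, so unmeasured genes between them were skipped. Of 224 such genes outside the set, 47.3% were lower, against 46.8% of all genes, with a median of 0.0020. They were not matched to the members in level. On chromosome 14, the 6 members PSMA3, PSMB5, PSMC1, PSMC6, PSME1 and PSME2 were all lower, against 54.9% of its 346 genes. The 6 nearest measured neighbours of PSMD3 were all above 0, from ORMDL3 at 0.0020 and CSF3 at 0.0060 to THRA at 0.17, GSDMB at 0.19 and GRB7 at 0.24. Those of PSMD12, a lower member on the same chromosome, were also all above 0, up to 0.24. On chromosome 17 as a whole 41.0% of 669 genes were lower, and 5 of its 6 members were. The nearest measured neighbours of PSMG1 had both signs, with ETS2 at 0.30 and HMGN1 at −0.13.

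Partner and regulator genes outside the set had both signs. Of 23 measured partners 14 were higher and 9 lower, against 46.8% of all genes lower, the median being 0.017 and the mean −0.016. The sign of this median was not stable, being −0.015 with each gene as the median over its probe sets and −0.014 on the second brightest. The lowest were DDI2, the protease that activates NFE2L1, at −0.35 from 91.5 to 71.8, the last value being under the floor, and UCHL5, the deubiquitinase of the base, at 1110 in shNC and 898 in shRAP1. Only 1 of the 4 probe sets of DDI2 passed the floor, and it did so through its shNC value alone. Of the 9 probe sets of UCHL5 4 passed the floor, and these were all lower, between −0.46 and −0.305. ADRM1, the ubiquitin receptor that holds UCHL5 on PSMD1, had 2280 and 1973, with 3 probe sets between −0.34 and −0.15. UBA1, the ubiquitin-activating enzyme, was at −0.13. NFE2L1 itself had 1522 and 1398 (−0.12), and its 6 probe sets were all lower, between −0.15 and −0.042. POMP, the maturation factor of the core, had 3603 and 3448, with 3 probe sets between −0.13 and −0.049. On the other side stood PAAF1, a base chaperone, which had 251 and 321 (0.35) with 3 probe sets between 0.20 and 0.35. AKIRIN2, which carries proteasomes into the nucleus, followed at 877 and 970 (0.14), then the proteasome-associated PITHD1 at 0.084 and the ubiquitin ligase UBE3C at 0.081. The inhibitor PSMF1 had 698 and 723, with 5 probe sets past the floor between 0.0040 and 0.15. ADRM1 and UCHL5 thus had the same sign as the base subunits, and the base chaperones PAAF1 and PSMD10 had opposite signs.

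**Figure D4:**
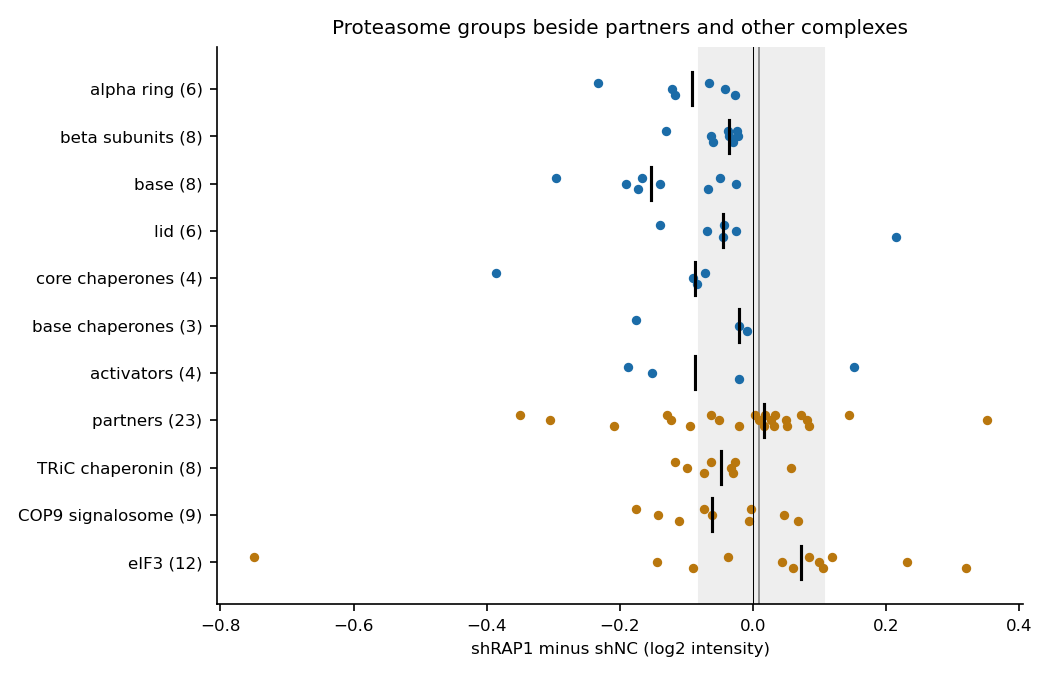
Difference (shRAP1 minus shNC, log2 intensity, x axis) of each measured gene in 7 proteasome groups (blue), the partners and 3 other complexes (ochre), with the number of genes in brackets and a black bar at each median. The grey band is the middle 50% of all measured genes; on these brightest probe sets the base has the lowest median, −0.15, and eIF3 the highest, 0.072.

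Other large complexes are set beside the proteasome, with 46.8% of all genes lower as the background. In the TRiC chaperonin, which folds actin and tubulin, 7 of 8 subunits were lower with a median of −0.048. Its genes are bright, with a median level of 12.32, and 58.2% of genes at or above a level of 10.16 were lower. The COP9 signalosome, whose subunits share the architecture of the proteasome lid, had 7 of 9 lower and a median of −0.061, the lowest being COPS3 at −0.18. Its median level was 9.77, below that cut. The translation factor eIF3, built on the same architecture, had 4 of 12 lower, a median of 0.072 and a mean of 0.0040. Its members were far apart, with an SD of 0.27, and EIF3J had 1033 in shNC and 614 in shRAP1 (−0.75), with both probe sets lower. The proteasome median of −0.066 thus lay near those of TRiC and COP9, and the difference between complexes was not tested.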

How the data were processed

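Each of 2 groups had 1 array. Probe set intensity values were deposited on a linear scale and had been made with RMA, per the submitters' processing notes; this method subtracts background, quantile-normalises the arrays it is run on together and merges the probes of a set. If both arrays were run together, a difference is relative to the other genes. Median intensities were 77.0 and 78.9. Its version and the arrays it was run on are not stated there. The highest value over both arrays was 25726, from which the linear scale was read, and log2 was taken with no pseudocount. Of 49293 non-control probe sets, 44988 had 1 gene symbol in the platform annotation, 1832 several and 2473 none; the last 2 kinds were used for no gene. The floor, the brightest-probe-set rule and the lists were chosen with earlier results of these data known. Every measured member is named, with the partners furthest from 0 in each direction; NFE2L1, POMP, PSMF1 and the neighbouring genes were named after their values were seen. Sizes of 1.2-fold and 1.1-fold were used for counts. Scripts used pandas 2.3.3, numpy 2.4.6, statsmodels 0.14.6 and matplotlib 3.10.9 under Python 3.11.15, and the gene table was tested on simulated data. Motifs were searched in the 250 bases before gene starts of GRCh38.p14 only. Alternatives changed the probe set, the floor, the probe sets admitted, the centring (lowess, span 0.3), the summary and the size.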

Additional observations from a re-analysis of the deposited data

How the results depend on the processing

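No paired analysis was possible because each group had 1 array. The count of lower members was 37 of 39, against 46.8% of all genes. With the second brightest probe set, a setting that leaves fewer genes, it was 22 of 27, against 51.7%. It was 34 of 39 (48.3% of all genes) with each gene as the median over its probe sets. With probe sets named _x_at or _s_at left out it was 31 of 35 (47.7%), and with no floor 38 of 42 (45.7%). The count was 37 of 39 with the floor at the 75th percentile (52.2%) and on the mean of both arrays (47%). After lowess centring it was 36 of 39 (50.4%). The 2 members at least 1.2-fold lower became 11 at 1.1-fold and 0 at 1.5-fold. The 0 that were higher became 2 at 1.1-fold and 1 with no floor, through PSMB8. The partners' median of 0.017 turned to −0.015 with each gene as the median over its probe sets, −0.014 with the second brightest and −0.016 as a mean; the cause was not tested. Medians moved by over 1.5 times, at the furthest, for the core (−0.050, to −0.028 after lowess centring), the regulatory particle (−0.068, to −0.113 with the second brightest probe set), the assembly factors (−0.083, to −0.136 likewise) and the activators (−0.086, to −0.0060 likewise). The difference of core and regulatory medians, 0.018, ranged from 0.0080 to 0.069. Of 257 values of single members, 13 did not keep the sign, all in PSMB1, PSMB2, PSMC4, PSME3 and PSME4. Among them is PSMB2 after lowess centring, which was at 0 as rounded. Comparing with genes at or above the members' lower quartile of level, and base with lid, was chosen after seeing the data. The comparison of alpha with beta genes was not planned and was not repeated under other settings. In the setting without less specific probe sets, PSMC1, PSMC6, PSMD4 and PSME2 had no value.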
